A study of Mus musculus with 15 samples.

Results

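The 15 mice of the series were split into Reg3g-high and Reg3g-low classes, which were defined by the measured Reg3g FPKM of each mouse in the ileum and not by a label. A mouse with a Reg3g FPKM of 900 or more was called Reg3g-high (8 of 15 mice) and a mouse under 900 was called Reg3g-low (7 of 15 mice). FPKM is the number of sequenced fragments of a gene scaled by the length of the gene and by the size of the library. All mice were female C57BL/6 mice, 8 weeks old, and 5 were gavaged with water, 5 with low molecular weight proanthocyanidins (low PAC) and 5 with PAC that the sample labels call high (high PAC), while the methods of the study describe a fraction of medium polymer size. Both PAC fractions came from grape extract and were given at 200 mg/kg on every 2nd day for 10 days. Each mouse gave 1 library of total RNA from a piece of ileum (the labels say intestinal tissue), so that fewer cells of a type and less RNA per cell cannot be told apart.

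Reg3g is a C-type lectin that enterocytes and Paneth cells of the small intestine secrete, where it kills Gram-positive bacteria and keeps them away from the epithelial surface. Its transcription is known to rise when bacteria signal through Toll-like receptors and MyD88, and when innate lymphoid cells release interleukin-22, which acts through STAT3 in epithelial cells. Other products of this epithelial response are the paralog Reg3b, serum amyloid A, the hydrogen peroxide producing oxidase Duox2 with its maturation factor Duoxa2, and the fucosyltransferase Fut2.

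The level of Reg3g in the water mice was 939.96, 3291.56, 1815.5, 2130.86 and 1556.23 FPKM (mice 1 to 5), so that all 5 were Reg3g-high. In the low PAC mice it was 601.33, 5722.09, 595.08, 376.04 and 351.84 FPKM, and in the high PAC mice 522.88, 297.11, 1567.62, 1300.57 and 241.06 FPKM. Low PAC mouse 2 and high PAC mice 3 and 4 were therefore the 3 Reg3g-high mice among the 10 that had received PAC, and the 7 Reg3g-low mice had all received PAC. The mouse just inside the threshold was water mouse 1 with 939.96 FPKM, and the mouse just outside was low PAC mouse 1 with 601.33 FPKM. As these values chose the classes, nothing is read from the fit of Reg3g itself, which was bound to pass and is included only where counts over all genes say so.

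**Figure D1:**
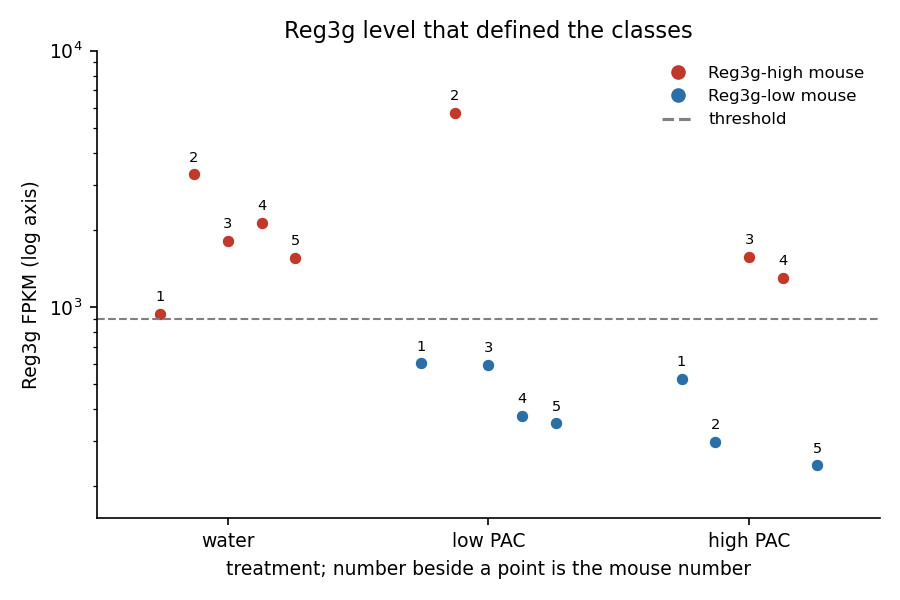
Reg3g FPKM of each of the 15 mice on a log axis, by treatment, with the mouse number beside each point and the threshold of 900 as a dashed line. All 5 water mice lie above the line, with 1 low PAC mouse (5722.09) and 2 high PAC mice (1567.62 and 1300.57), and the other 7 mice lie between 241.06 and 601.33.

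The 250 bases before the transcription start of Reg3g and of Reg3b are shown because Reg3g defines the classes and its paralog Reg3b is the most abundant of the called genes. They were taken from RefSeq (GRCm38.p6), and capitals mark a match to a STAT motif (TTCNNNGAA) or to the NF-kB motif, both searched on both strands. The window of Reg3g is chr6:78468875-78469124 on the minus strand, and its capitals are an NF-kB match that begins 123 bases before the start. The window of Reg3b is chr6:78370635-78370884 on the plus strand, and its capitals are a STAT match that begins 129 bases before the start. The GENCODE annotation begins Reg3b upstream of the RefSeq start, at 78370657, and Duox2 likewise, at 122298449 on the minus strand, so that by GENCODE most of each of these windows lies within the gene.
Reg3g: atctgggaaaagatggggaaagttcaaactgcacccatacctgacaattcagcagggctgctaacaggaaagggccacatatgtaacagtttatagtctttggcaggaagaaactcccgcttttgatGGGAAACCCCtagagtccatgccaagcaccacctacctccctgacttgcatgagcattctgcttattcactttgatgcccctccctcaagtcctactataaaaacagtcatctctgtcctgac
Reg3b: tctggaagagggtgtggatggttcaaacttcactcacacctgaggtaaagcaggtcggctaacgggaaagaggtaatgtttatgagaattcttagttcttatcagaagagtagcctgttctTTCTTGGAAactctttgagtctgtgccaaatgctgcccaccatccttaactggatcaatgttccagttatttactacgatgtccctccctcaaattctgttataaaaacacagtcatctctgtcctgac
The windows were identical in 173 of 253 aligned columns (68.4%), and the starts lie 97989 bases apart. A STAT match was present in 8.13% of the windows of all RefSeq genes and in 7.32% of those of the genes tested here, and an NF-kB match in 8.23% and 10.8%. The windows of Saa1, Duox2, Duoxa2 and Slc6a14 held no match to either motif, which says only that these letters are not in this window. Of the genes other than Reg3g that were called higher below, 14 had a window, and 3 of them held a STAT match (B3galt5, Dusp14 and Reg3b) and 1 an NF-kB match (Elf3). Of the genes called lower, 7 had a window, with a STAT match in Cyp4b1 and an NF-kB match in Pbld2. Duox2 and Duoxa2 are transcribed in opposite directions from RefSeq starts 673 bases apart.

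The samples were deep and even. Total estimated read counts ranged from 15963086 to 17903886, with medians of 17511383 in Reg3g-high and 17554554 in Reg3g-low mice, and Reg3g held between 3026 and 72362 counts. Genes of the distal small intestine were high in every mouse, with 4196.07 to 10619.91 FPKM of Fabp6 and 94.83 to 350.11 FPKM of Slc10a2, both of which handle bile acids in ileal enterocytes. High PAC mouse 3 stood apart by the sum of its FPKM values, 677075 against 502110 to 573980 in the other 14 mice. Markers of follicular B cells differed widely between mice of each treatment, with a summed FPKM of 13.1 in low PAC mouse 2 against 13.4 to 114 in the Reg3g-low mice of that treatment, and 14.1 and 317 in high PAC mice 4 and 3 against 9.94 to 338.

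Over all genes, the class difference was tested on the counts with edgeR, with treatment as a covariate. It is given as a log2 fold change, Reg3g-high over Reg3g-low, with its standard error (± SE). As no water mouse was Reg3g-low, the difference rests on 1 high against 4 low mice with low PAC and 2 high against 3 low mice with high PAC, and the water mice add only to the estimate of the spread. At a Benjamini-Hochberg adjusted p under 0.05, 15 genes other than Reg3g were higher (with Reg3g, 0.111% of the 14386 genes tested) and 10 were lower (0.0695%) in Reg3g-high mice. An unadjusted p under 0.05 was found for 5.61% of all genes with a higher and 5.03% with a lower level. DESeq2 called many more genes, 80 higher and 193 lower, among them all 25 of the genes that edgeR called. Of the 25 calls, 7 were lost with limma on log2(FPKM + 0.1), 22 without the treatment covariate and 25 with the replicate number as a block. Since the classes were chosen on a measured value and not set by the experiment, the adjusted p-values only sort the genes and say nothing of an effect of PAC.

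All 15 higher genes had a higher FPKM in the Reg3g-high mice than in every Reg3g-low mouse within both PAC treatments, an order shown by 2.05% of all genes tested. All 10 lower genes had the opposite order, which 5.08% of all genes tested showed. The 25 genes were selected by the same difference, so that these counts describe them and are no further evidence. Leaving out low PAC mouse 2, the only Reg3g-high mouse of its treatment, ended the call of all 25 genes, although 24 kept an unadjusted p under 0.05 and 25 kept their direction. Leaving out high PAC mouse 3 ended 13 of the 25 calls, of which 8 were of lower genes. Of the other mice, low PAC mouse 3 and high PAC mouse 2 ended 17 calls each, low PAC mouse 5 ended 14, high PAC mice 5, 1 and 4 ended 12, 9 and 8, and each remaining mouse 0 to 4. Saa1, Reg3b, Duox2, Duoxa2, AA467197, Gadd45g and Clec2e lost their call only without low PAC mouse 2, and the other called genes without 3 to 12 of the mice.

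**Figure D2:**
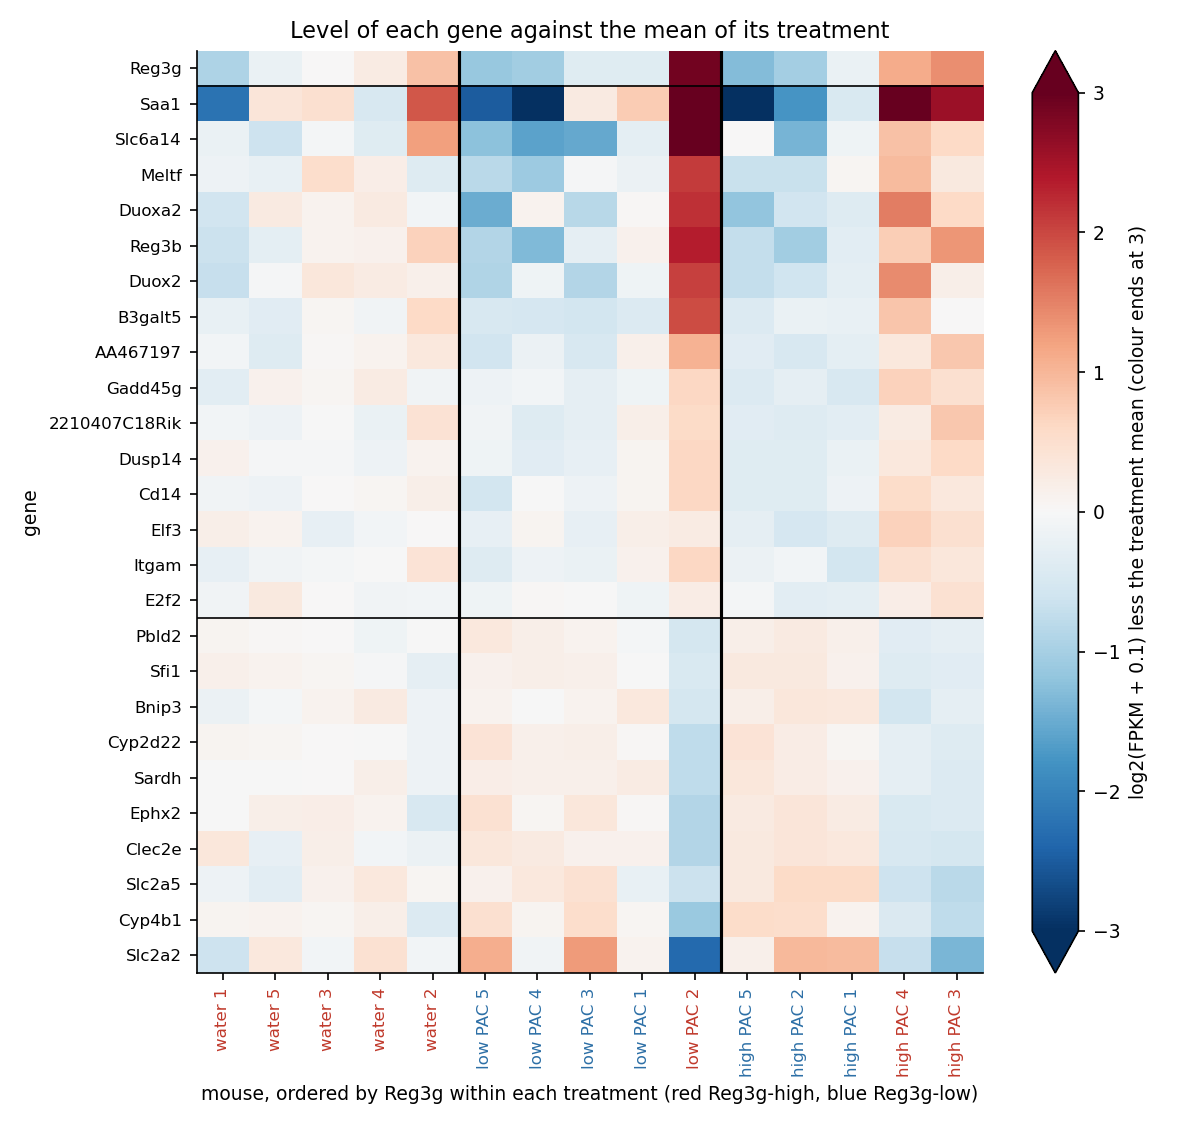
Reg3g and the 25 genes called between the classes (rows) in the 15 mice (columns, ordered by Reg3g within each treatment), as log2(FPKM + 0.1) less the mean of the treatment. Columns of low PAC mouse 2 and high PAC mice 3 and 4 are red for the 15 higher genes, save B3galt5 and Duox2 in high PAC mouse 3, which lie near the mean, and blue for the 10 lower genes.

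The antimicrobial lectin Reg3b, the most abundant of the called genes, rose. Reg3b (gene 18489, chromosome 6, 78370657 to 78373466, plus strand in GRCm38), a paralog of Reg3g that acts mainly on Gram-negative bacteria, was at 2455.67, 6223.62, 4177.29, 4225.96 and 3169.02 FPKM in the water mice. In the low PAC mice it was at 2047.19, 9637.21, 1566.38, 747.88 and 1021.42 FPKM, and in the high PAC mice at 1368.69, 832.76, 4263.27, 2861.9 and 1039.52 FPKM. Low PAC mouse 2 was highest of all 15, high PAC mice 3 and 4 fell within the range of the water mice, and the 7 Reg3g-low mice were all below the lowest water mouse. The log2 fold change of Reg3b was 2.25 ± 0.31 (SE, adjusted p = 0.00881), or 4.76-fold. It was 1.72 (adjusted p = 0.36) without low PAC mouse 2. Reads of Reg3g and Reg3b could in part be shared, as the sources used here do not state how reads of similar genes were counted.

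The other Reg lectins were not called. Reg3a, which lies in the same cluster on chromosome 6, ranged from 44.66 to 77.04 FPKM and Reg4, a lectin of secretory and endocrine cells, from 35.47 to 138.16 FPKM, with overlapping classes in both PAC treatments. Reg1 was low, at 2.93 FPKM in low PAC mouse 2 against 1.16 to 1.41 in the Reg3g-low mice of that treatment, and at 3.31 and 2.87 FPKM in high PAC mice 3 and 4 against 1.21 to 2.46. Its log2 fold change of 1.04 ± 0.27 (SE) did not pass the test (adjusted p = 0.141). Reg3d and Reg2 had too few counts to be tested.

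Saa1, an acute phase apolipoprotein that epithelial cells make in response to bacteria, had the largest change. Saa1 (gene 20208, chromosome 7, 46740497 to 46742980, minus strand) was at 2.26, 40.11, 15.16, 7.74 and 13.98 FPKM with water, at 4.03, 165.41, 2.86, 0.0 and 0.33 FPKM with low PAC, and at 1.47, 0.53, 12.79, 17.47 and 0.11 FPKM with high PAC. The 3 Reg3g-high mice with PAC were at 12.79 or more and the 7 Reg3g-low mice at 4.03 or less, while water mouse 1, which had the lowest Reg3g of its group, also had the lowest Saa1 of its group. The log2 fold change of Saa1 was 5.76 ± 0.79 (SE, adjusted p = 0.00881), and 4.43 (adjusted p = 0.54) without low PAC mouse 2. Its near copy Saa2 did not exceed 0.53 FPKM and was not tested, and the split of reads between such copies is uncertain.

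The dual oxidase pair rose together. Duox2, which releases hydrogen peroxide at the apical surface of enterocytes (gene 214593, chromosome 2, 122279247 to 122298449, minus strand), was at 8.54, 15.36, 17.66, 16.42 and 13.53 FPKM with water, at 7.48, 34.38, 4.44, 7.55 and 4.34 FPKM with low PAC and at 4.44, 3.57, 6.15, 14.71 and 3.3 FPKM with high PAC. Duoxa2 (gene 66811, chromosome 2, 122298900 to 122302885, plus strand), which brings Duox2 to the membrane, was at 3.7, 5.28, 6.05, 6.74 and 6.77 FPKM with water, at 3.66, 16.64, 1.98, 3.9 and 1.21 FPKM with low PAC, and at 2.42, 2.11, 4.84, 9.35 and 1.35 FPKM with high PAC. For both genes low PAC mouse 2 was highest and high PAC mouse 4 was above high PAC mouse 3, whose Duox2 lay below that of 2 Reg3g-low mice of the low PAC group. The log2 fold change was 2.00 ± 0.28 for Duox2 (SE, adjusted p = 0.00948) and 2.25 ± 0.31 for Duoxa2 (SE, adjusted p = 0.00881). They were 1.49 (adjusted p = 0.426) and 1.87 (adjusted p = 0.36) without low PAC mouse 2. Duox1, the other dual oxidase, was at 0.07 to 0.19 FPKM in all mice.

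**Figure D3:**
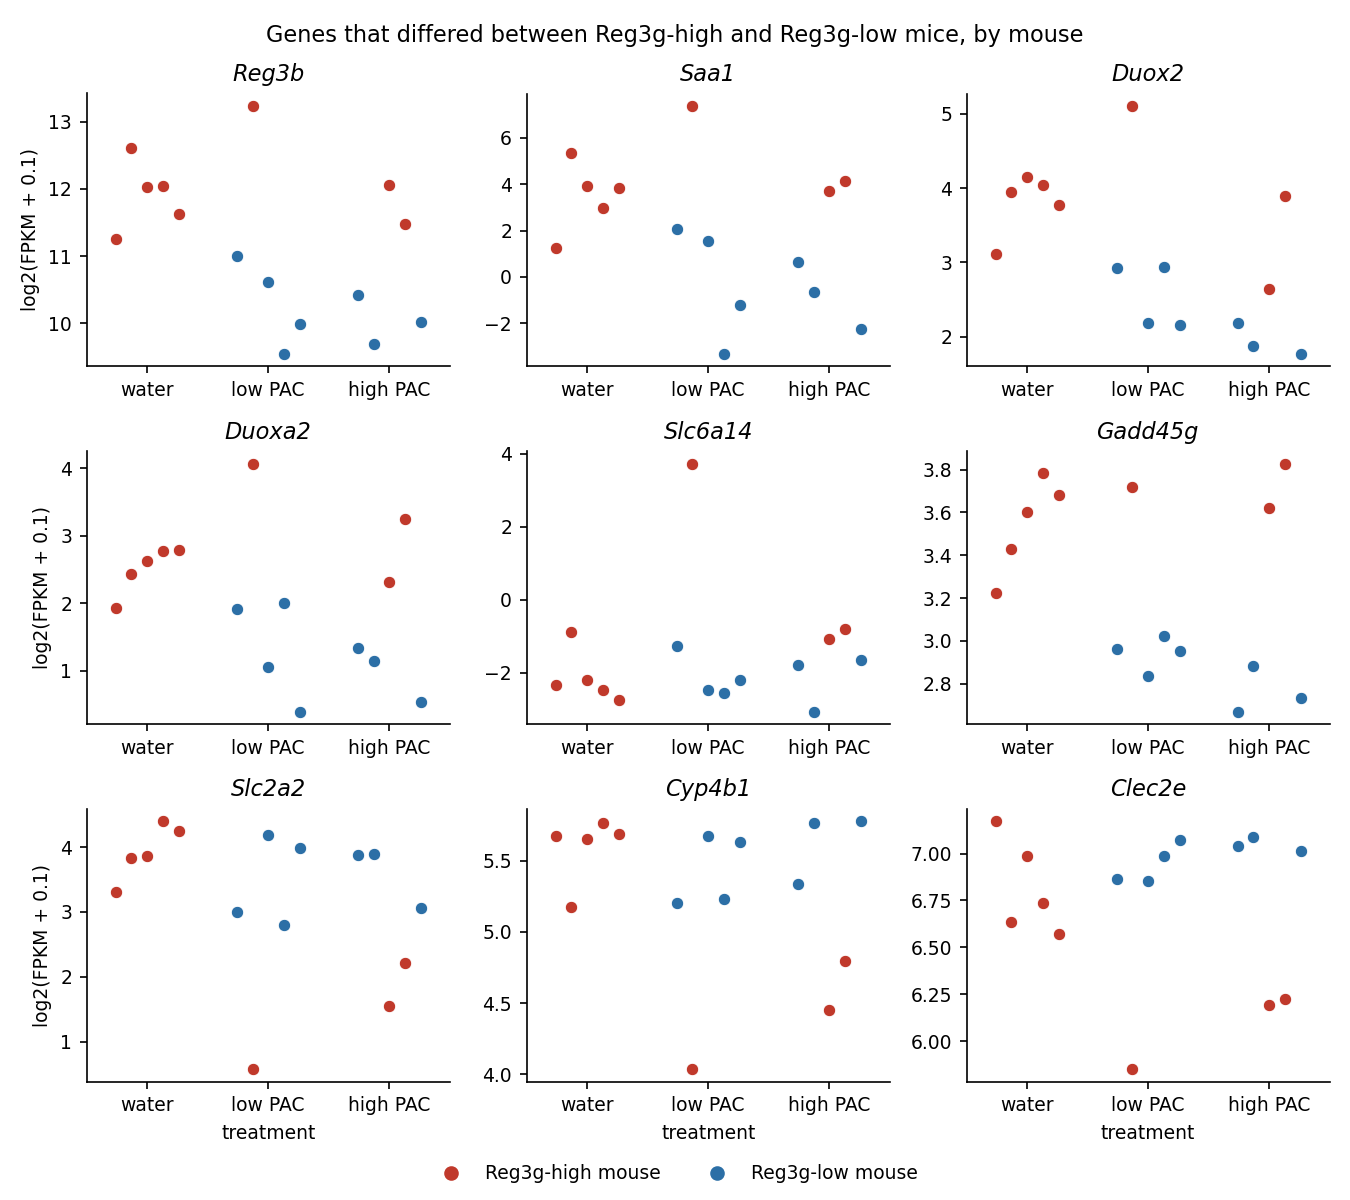
Level of 9 of the called genes in each mouse as log2(FPKM + 0.1), by treatment, with Reg3g-high mice in red and Reg3g-low mice in blue. In both PAC treatments the red points lie above the blue ones for Reg3b, Saa1, Duox2, Duoxa2, Slc6a14 and Gadd45g and below them for Slc2a2, Cyp4b1 and Clec2e, and all 5 water mice are red.

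Slc6a14, a transporter of neutral and cationic amino acids, rose mainly in 1 mouse. Slc6a14 (gene 56774, chromosome X, 21714896 to 21742355, plus strand) was at 13.12 FPKM in low PAC mouse 2 and at 0.02 to 0.48 FPKM in the other 14 mice, of which high PAC mouse 4 (0.48), water mouse 2 (0.44) and high PAC mouse 3 (0.38) were the highest. Its log2 fold change was 4.56 ± 0.78 (SE, adjusted p = 0.0286), and 1.60 (adjusted p = 0.618) without low PAC mouse 2. Leaving out any of the other low PAC mice or high PAC mouse 2 also ended its call. B3galt5, a galactosyltransferase of glycan chains, had 3.08 FPKM in low PAC mouse 2, 0.46 and 0.89 FPKM in high PAC mice 3 and 4 and 0.32 to 0.51 FPKM in the Reg3g-low mice. Meltf, an iron-binding protein of the cell surface, had 1.26, 0.29 and 0.51 FPKM in the same 3 mice and 0.05 to 0.23 FPKM in the Reg3g-low mice. Their log2 fold changes were 1.80 ± 0.30 (SE, adjusted p = 0.0286) and 2.39 ± 0.42 (SE, adjusted p = 0.0327), and both rest on few counts. The adjusted p was 0.59 for B3galt5 and 0.6 for Meltf without low PAC mouse 2.

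Smaller rises were seen in Gadd45g, AA467197, Cd14 and Dusp14. Gadd45g, a stress-induced inhibitor of the cell cycle, was at 7.7, 13.05, 7.05, 8.02 and 7.64 FPKM with low PAC and at 6.26, 7.28, 12.21, 14.1 and 6.55 FPKM with high PAC, so that the 3 Reg3g-high mice lay within the water range of 9.24 to 13.66 FPKM or just above it. Its log2 fold change was 0.93 ± 0.12 (SE, adjusted p = 0.00881), with 0.98 (adjusted p = 0.144) without low PAC mouse 2. AA467197, which encodes a small mitochondrial protein, rose by 1.12 on the log2 scale (standard error 0.16, adjusted p = 0.00948), from 29.75 to 49.1 FPKM in the Reg3g-low mice with low PAC to 91.4 FPKM, and from 26.78 to 30.6 FPKM with high PAC to 65.71 and 46.98 FPKM. Cd14, the coreceptor for bacterial lipopolysaccharide, was at 4.51 FPKM in low PAC mouse 2 and at 4.46 and 5.25 FPKM in high PAC mice 3 and 4, against 1.96 to 3.2 FPKM in the 7 Reg3g-low mice and 2.61 to 3.3 FPKM with water. Its log2 fold change was 0.79 ± 0.14 (SE, adjusted p = 0.0334). Dusp14, a phosphatase of MAP kinases, followed with 0.84 ± 0.14 (SE, adjusted p = 0.0286), and its Reg3g-high mice (2.18 to 2.96 FPKM) were also above all water mice (1.27 to 1.55 FPKM). Without low PAC mouse 2, AA467197 was at 0.95 (adjusted p = 0.36), Cd14 at 0.75 (adjusted p = 0.463) and Dusp14 at 0.81 (adjusted p = 0.426).

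Elf3, E2f2 and 2210407C18Rik are named after their values were seen. Elf3, an epithelial transcription factor of the ETS family, changed by 0.75 ± 0.14 (SE, adjusted p = 0.0373), Itgam, the integrin chain CD11b of myeloid cells, by 0.75 ± 0.14 (SE, adjusted p = 0.044), E2f2, a cell cycle transcription factor, by 0.50 ± 0.09 (SE, adjusted p = 0.0286), and 2210407C18Rik by 0.86 ± 0.14 (SE, adjusted p = 0.0286) on the log2 scale. B3galt5 and Meltf, with a mean FPKM under 1, were also named after their values were seen. Without low PAC mouse 2 the adjusted p was 0.0921 for Elf3, 0.54 for Itgam, 0.333 for E2f2 and 0.36 for 2210407C18Rik. Itgam was the only 1 of 13 tested macrophage and dendritic cell markers past the adjusted threshold. The summed FPKM of the whole list of 13 was 180 in low PAC mouse 2 against 195 to 239 in the other low PAC mice, and 177 and 377 in the 2 Reg3g-high mice with high PAC against 172 to 274. Of 12 neutrophil markers, 4 had enough counts to be tested, and all 4 were higher without a call (median 0.28, 0 with an unadjusted p under 0.05 by edgeR). Their list summed to 8.18 FPKM in low PAC mouse 2 against 5.63 to 10.4, and to 6.93 to 13 FPKM against 6.1 to 6.34 with high PAC, with S100a8 and S100a9 at no more than 0.18 and 0.65 FPKM, and its part in the rise of Itgam was not tested. Leaving out any 1 of 12 mice ended the call of Itgam and any 1 of 10 that of Elf3.

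The 10 genes that were lower in the Reg3g-high mice with PAC included a pair of sugar transporters and a pair of cytochromes P450. The water mice, all Reg3g-high, overlapped the Reg3g-low mice for Slc2a5 (18.37 to 28.53 FPKM), Clec2e (94.96 to 144.08 FPKM) and Ephx2 (29.13 to 46.52 FPKM). For Sardh (1.2 to 1.53 FPKM) they lay below all Reg3g-low mice, and for Bnip3 (11.13 to 15.25 FPKM) below those with high PAC. Without the treatment covariate 0 genes were called lower by edgeR. Slc2a2, the glucose transporter GLUT2 of the enterocyte (gene 20526, chromosome 3, 28697903 to 28731359, plus strand), was at 9.85, 14.18, 14.37, 20.95 and 18.85 FPKM with water, at 7.93, 1.39, 18.11, 6.86 and 15.8 FPKM with low PAC, and at 14.56, 14.71, 2.82, 4.56 and 8.24 FPKM with high PAC. The 3 Reg3g-high mice with PAC were below all 12 others, although the Reg3g-low mice with low PAC spread from 6.86 to 18.11. Its log2 fold change was -2.16 ± 0.40 (SE, adjusted p = 0.044), and -1.75 (adjusted p = 0.48) without low PAC mouse 2 and an adjusted p of 0.123 without high PAC mouse 3. Slc2a5, the fructose transporter GLUT5, was at 12.25 FPKM in low PAC mouse 2 against 16.45 to 26.52, and at 9.47 and 10.76 FPKM in high PAC mice 3 and 4 against 20.34 to 24.92, a log2 fold change of -1.02 ± 0.17 (SE, adjusted p = 0.0286). Without low PAC mouse 2 it was -1.20 (adjusted p = 0.194), and without high PAC mouse 3 the adjusted p was 0.0808.

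Cyp4b1, a cytochrome P450 that hydroxylates fatty acids and foreign compounds (gene 13120, chromosome 4, 115624725 to 115647723, minus strand), was at 16.29 FPKM in low PAC mouse 2 against 36.7 to 50.9, and at 21.78 and 27.61 FPKM in high PAC mice 3 and 4 against 40.3 to 54.66. The water mice were at 35.94 to 54.3 FPKM, with the lowest value in water mouse 2, which had the highest Reg3g of that group. The slope of Cyp4b1 on log2 Reg3g in the water mice did not reach an unadjusted p under 0.05 by edgeR. The log2 fold change of Cyp4b1 was -1.14 ± 0.17 (SE, adjusted p = 0.017). Clec2e, a C-type lectin-like membrane protein, was at 57.55 FPKM in low PAC mouse 2 against 115.7 to 134.67, and at 73.04 and 74.73 FPKM in high PAC mice 3 and 4 against 129.23 to 135.82, with a log2 fold change of -0.91 ± 0.14 (SE, adjusted p = 0.0143). Clec2e was among the 2 lower genes still called without high PAC mouse 3 (adjusted p = 0.024), together with Pbld2 (adjusted p = 0.0251). Without low PAC mouse 2 the adjusted p of both Cyp4b1 and Clec2e was 0.36.

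The other 6 lower genes changed less. Ephx2, the soluble epoxide hydrolase of lipid epoxides, changed by -0.84 on the log2 scale (standard error 0.15, adjusted p = 0.0286), Sardh, a mitochondrial sarcosine dehydrogenase, by -0.74 ± 0.13 (SE, adjusted p = 0.0286), and Cyp2d22, a further cytochrome P450, by -0.69 ± 0.11 (SE, adjusted p = 0.0286). Bnip3, a receptor for the removal of mitochondria, changed by -0.64 ± 0.11 (SE, adjusted p = 0.0286), Sfi1, a centrin-binding protein of centrosomes, by -0.57 ± 0.10 (SE, adjusted p = 0.0438), and Pbld2 by -0.54 ± 0.09 (SE, adjusted p = 0.0229). All 6 were lower in each of the 3 Reg3g-high mice with PAC than in the Reg3g-low mice of the same treatment. Their adjusted p lay between 0.36 and 0.463 without low PAC mouse 2, and the call of Sfi1 was ended by leaving out any 1 of 10 mice.

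The class difference was computed within each PAC treatment, in 1 model of all 15 mice with a pooled spread. Low PAC has a single Reg3g-high mouse, which is assumed to vary like the other mice, so that its standard errors and calls rest on that assumption. All 25 genes had the same sign within low PAC and within high PAC, which is in part set by the way they were called. Within low PAC, 5 genes besides Reg3g passed the adjusted threshold (B3galt5, Duox2, Reg3b, Saa1 and Slc6a14), and within high PAC 1 gene, C2cd4b, which is not among the 25. Over all genes, 0 passed the adjusted threshold for a difference between the class effects of the treatments by edgeR, 206 (1.43%) had an unadjusted p under 0.05, and the smallest adjusted p was 0.999. Of the 25 genes, 4 had such an unadjusted p. The effect of Slc6a14 was 6.49 ± 0.69 (SE) with low PAC and 1.60 ± 0.78 (SE) with high PAC, and that of B3galt5 was 2.71 ± 0.31 (SE) and 0.93 ± 0.30 (SE). Meltf differed in the same direction and Elf3, with 0.37 and 0.98, in the opposite one, and the adjusted p of the difference was 0.999 for all 4 by edgeR. As low PAC mouse 2 is the only Reg3g-high mouse of its treatment, that mouse and its treatment cannot be told apart.

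**Figure D4:**
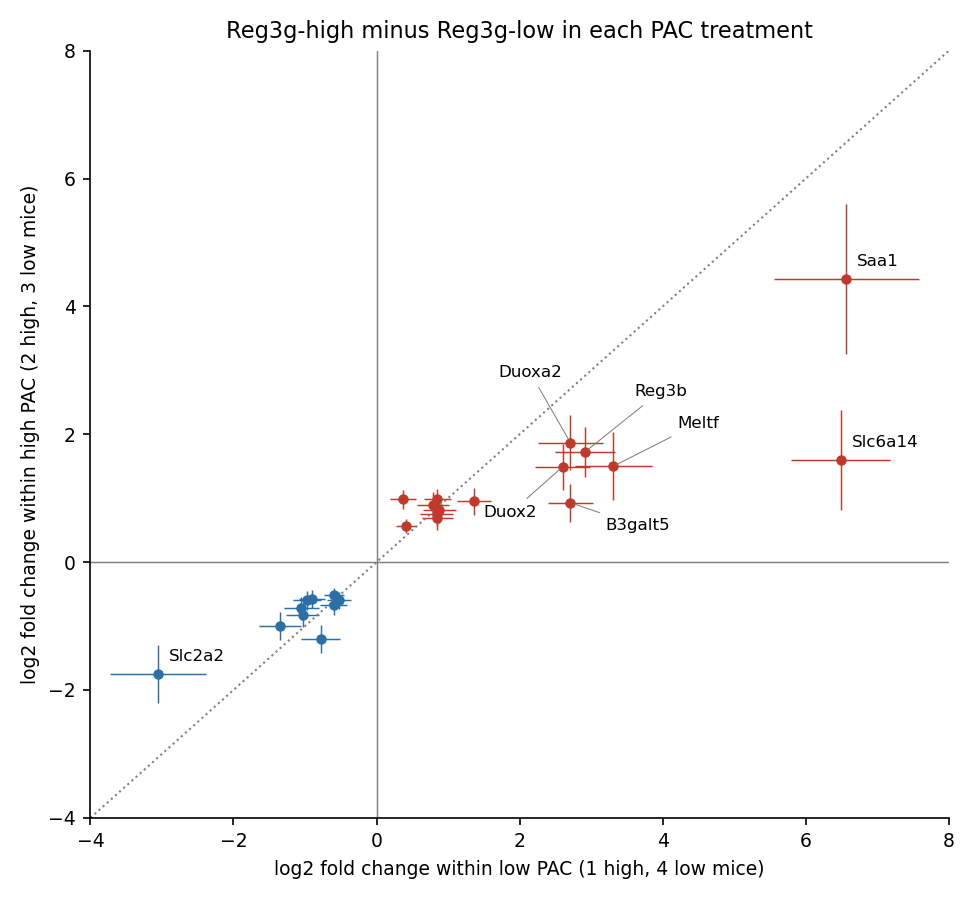
Log2 fold change of the 25 called genes between Reg3g-high and Reg3g-low mice within low PAC (horizontal) and within high PAC (vertical), with bars of 1 standard error and a dotted line of equality. All points lie in the quadrants of equal sign, and Slc6a14 lies farthest from the line at 6.49 against 1.60.

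With the log2 Reg3g FPKM of all 15 mice in place of the classes, 0.188% of the genes rose (27, among them Reg3g, which was fitted to its own level and had to pass) and 0.236% fell (34) with Reg3g at an adjusted p under 0.05. This list and the list of called genes had 19 genes in common, 76.0% of the 25 and 31.7% of the 60 genes other than Reg3g. Saa1 changed by 2.02 ± 0.15 (SE), Reg3b by 0.81, Duoxa2 by 0.73 and Duox2 by 0.66 on the log2 scale for each doubling of Reg3g.

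The 5 water mice all lie in 1 class and entered the class difference only through the estimate of the spread. They were also looked at alone, a choice made after seeing the data. Of the 15 higher genes, 11 had a slope on log2 Reg3g above 0, as had 50.9% of all genes tested, and of the 10 lower genes 7 had a slope under 0, against 49.1% of all genes. An unadjusted p under 0.05 was found for 6 of the 25 genes and for 5.37% of all genes. These 6 were Reg3b, Saa1, Slc6a14, Duox2, Itgam and Sfi1, and 0 genes passed the adjusted threshold by edgeR (773 had an unadjusted p under 0.05). For each doubling of Reg3g the level of Reg3b differed by 0.75 and that of Saa1 by 1.95 on the log2 scale, both with an adjusted p of 0.76. The slopes of Gadd45g (0.14), Duoxa2 (0.28), Dusp14 (-0.03) and Slc2a2 (0.33) had an unadjusted p over 0.05 in these 5 mice.

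Beyond the single calls, lists of genes were described by their counts and medians, beside a median log2 fold change of 0.01 over all genes tested. Of the 20 tested secreted antimicrobial and acute phase products, 1 was called (Saa1), 16 were higher and 4 lower, 9 of the 16 with an unadjusted p under 0.05, and the median was 0.39. Not all members rose. Lcn2 had 3.05 FPKM in low PAC mouse 2 against 3.4 to 4.74, and 3.35 to 3.62 FPKM against 3.44 to 4.84 with high PAC. Lrg1 had 2.0 FPKM against 1.99 to 3.22, and 1.74 to 3.96 FPKM against 2.38 to 4.29. Pglyrp1, a peptidoglycan-binding protein, had 170.6 FPKM in low PAC mouse 2 against 96.28 to 151.14. Pglyrp1 had 208.34 and 148.67 FPKM in high PAC mice 3 and 4 against 106.25 to 129.57, and did not pass the test (0.59 ± 0.12, adjusted p = 0.0783). Of 11 tested markers of M cells and follicle epithelium, 9 were higher, 4 with an unadjusted p under 0.05 by edgeR, and 0 were called. Their median was 0.26, with 0.11 within low PAC and 0.38 within high PAC. It became 0.11 without high PAC mouse 3, which had 317 FPKM of follicular B cell markers. The part of lymphoid follicles in the levels of Pglyrp1, and of Ccl20 below, was not tested. Lypd8, which keeps flagellated bacteria off the epithelium, had a log2 fold change of 0.47 ± 0.11 (SE, adjusted p = 0.124). Retnlb, a goblet cell product, was not tested for its few counts and reached 5.99 FPKM in low PAC mouse 2. Of the 19 tested Paneth cell markers, 18 were higher, 5 of them with an unadjusted p under 0.05, with a median of 0.28, and their summed FPKM was 86100 in low PAC mouse 2 against 62900 to 86600, and 86400 to 107000 against 76000 to 84800 with high PAC. In the Reg3g-high water mice it was 37000 to 86100, reaching below every Reg3g-low mouse. Reads of the similar Defa genes of this list cannot be told apart here.

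Of the 13 tested genes on the list of oxidant production, 10 were higher and 3 lower, and 2 were called (Duox2 and Duoxa2). An unadjusted p under 0.05 by edgeR was found for 8 with a higher and 1, Steap4, with a lower level. The median was 0.54, with 0.35 without high PAC mouse 3 and 0.35 to 0.82 when each mouse was left out in turn. The list also holds genes that do not make oxidants, among them Gpx2, Tat and Steap4, so that its counts are not of oxidant production alone. Nos2, the inducible nitric oxide synthase, had 78.44 FPKM in low PAC mouse 2 against 15.49 to 27.48, but 13.91 and 64.56 FPKM in high PAC mice 3 and 4 against 6.3 to 29.61, where the classes overlapped (1.52 ± 0.43, adjusted p = 0.178). Gpx2, the gastrointestinal glutathione peroxidase, had 337.57 FPKM against 130.78 to 280.02 with low PAC, and 268.62 and 258.92 FPKM against 153.35 to 174.74 with high PAC (0.80 ± 0.19, adjusted p = 0.117). Tat, a tyrosine aminotransferase on the same list, reached 14.85 FPKM in high PAC mouse 4 and 4.83 FPKM in low PAC mouse 2 (3.41 ± 0.71, adjusted p = 0.0783).

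Among 17 tested genes of mucins and glycans, 0 were called, and 6 had an unadjusted p under 0.05, all higher, with a median of 0.23. Fut2, which fucosylates epithelial glycans, had 6.78 FPKM in low PAC mouse 2 against 0.56 to 1.41, and 1.37 and 2.26 FPKM against 0.78 to 1.12 with high PAC, with a log2 fold change of 1.90 ± 0.40 (SE, adjusted p = 0.0867). The immunoglobulin carrier Pigr (0.55, adjusted p = 0.117) and the pentraxin Mptx2 (0.99, adjusted p = 0.147) had the same order in both treatments. All 9 tested epithelial chemokines were higher, 4 with an unadjusted p under 0.05 and 0 called, among them Ccl28 (0.65 ± 0.13, adjusted p = 0.0734) and Ccl20 (1.85 ± 0.66, adjusted p = 0.309).

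The signals known to act on Reg3g gave no call. Il22, Il17a and Il6 did not exceed 0.39, 0.16 and 0.11 FPKM in any mouse and were not tested, although the highest Il22 values, 0.35 and 0.39 FPKM, were those of high PAC mice 3 and 4, with 0.0 FPKM in low PAC mouse 2. Il18, an epithelial cytokine, had 39.83 FPKM in low PAC mouse 2 against 15.05 to 18.93, and 20.11 and 21.33 FPKM against 14.37 to 18.81 with high PAC (0.72 ± 0.18, adjusted p = 0.128). Of the 27 receptors and signal carriers, 14 were higher and 13 lower, 4 with an unadjusted p under 0.05, 0 were called, and the median was 0.00. Il22ra1 ranged from 18.27 to 37.42 FPKM and Stat3 from 24.05 to 40.67 FPKM. Of the 21 tested feedback targets of STAT3 and NF-kB, 17 were higher, 6 of them with an unadjusted p under 0.05, and 0 were called, with a median of 0.09 within low PAC and 0.45 within high PAC. Socs3, the inhibitor of STAT3 signalling, had 12.7 FPKM in low PAC mouse 2, within the 9.69 to 14.75 of the Reg3g-low mice, but 20.03 and 37.75 FPKM in high PAC mice 3 and 4 against 8.33 to 10.93 (1.07 ± 0.28, adjusted p = 0.147). Tifa, an adaptor for bacterial sugars, had 89.08 FPKM in high PAC mouse 4 and 33.75 FPKM in low PAC mouse 2, where low PAC mouse 1 had 56.86 FPKM (1.05 ± 0.33, adjusted p = 0.217).

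**Figure D5:**
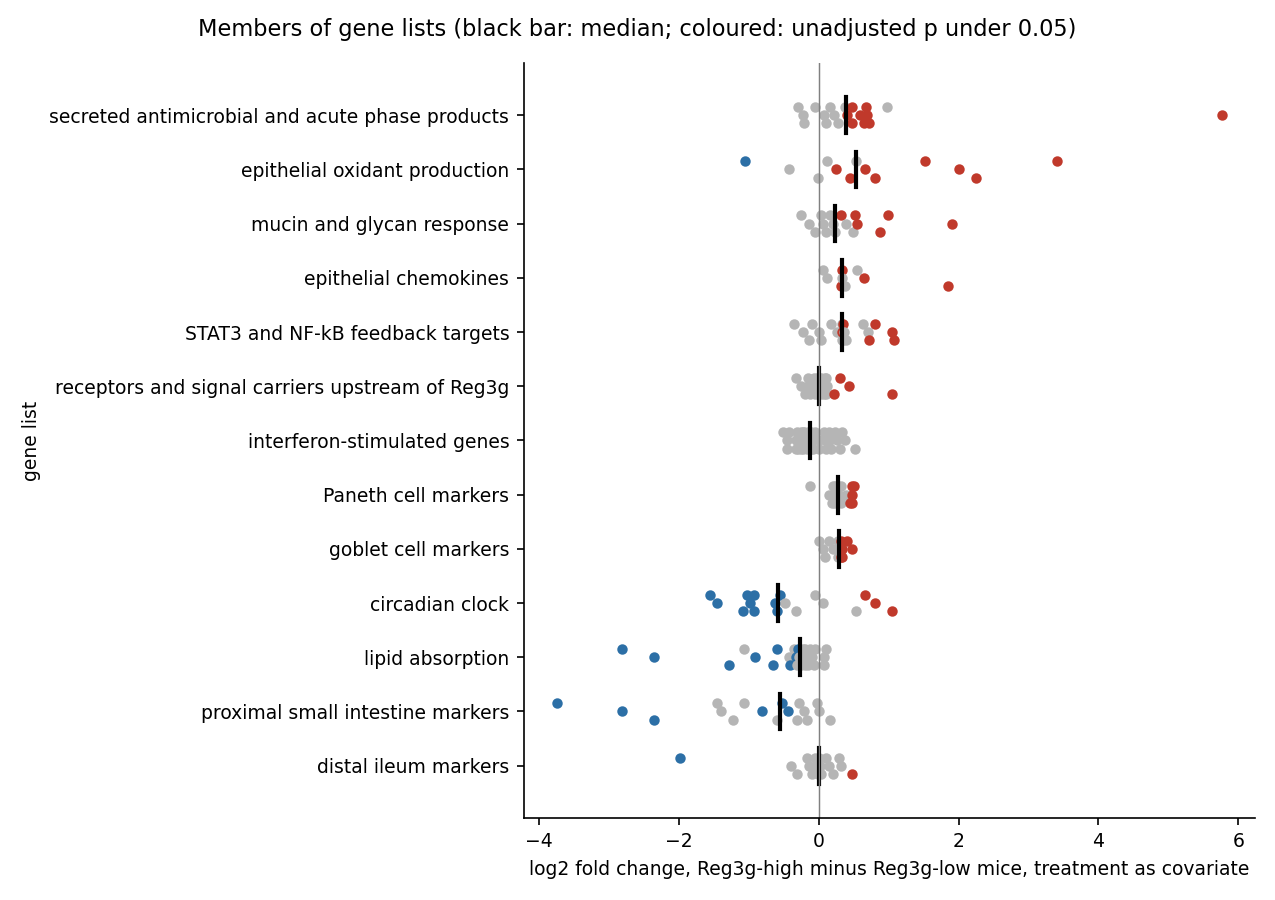
Log2 fold change between Reg3g-high and Reg3g-low mice of the tested members of 13 gene lists, Reg3g left out, with the median of each list as a black bar and members with an unadjusted p under 0.05 in red (higher) or blue (lower). Medians lie at 0.39 for secreted antimicrobial products and 0.54 for oxidant production, and at -0.57 for the clock, -0.27 for lipid absorption and -0.56 for proximal small intestine markers.

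Absorptive genes lay on the lower side. Of 28 genes of lipid absorption, 25 were lower and 9 of them had an unadjusted p under 0.05, with 0 called and a median of -0.27, and of 18 tested markers of the proximal small intestine 16 were lower, 6 with an unadjusted p under 0.05, with 0 called and a median of -0.56. Lct, the lactase, had 38.33, 15.19, 54.84, 80.46 and 92.69 FPKM with water, 10.39, 1.1, 32.95, 29.43 and 64.77 FPKM with low PAC, and 10.67, 52.83, 2.68, 3.2 and 17.21 FPKM with high PAC. The 3 Reg3g-high mice with PAC were the 3 lowest of all, but the log2 fold change of -3.74 ± 0.78 (SE) did not pass the test (adjusted p = 0.0783). The same held for Enpp7, the intestinal sphingomyelinase (-1.98 ± 0.43, adjusted p = 0.0983). The brush border phospholipase Plb1 was also lower (-2.81 ± 0.68, adjusted p = 0.124), but high PAC mouse 3 (35.79 FPKM) was level with high PAC mouse 1 (35.66 FPKM). Scd1, a fatty acid desaturase (-2.35 ± 0.67, adjusted p = 0.179), Fabp2, the enterocyte fatty acid carrier (-0.60 ± 0.18, adjusted p = 0.194), and Ppara, a nuclear receptor for fatty acids (-0.39 ± 0.08, adjusted p = 0.0852), also lay below. The summed FPKM of the proximal markers was 845 in low PAC mouse 2 against 1280 to 1930, and 1070 to 1110 against 1290 to 1760 with high PAC. In the water mice, which were all Reg3g-high, it was 1390 to 2650, so that the lower level held only within the PAC treatments. Without the treatment covariate the log2 fold changes turned to 0.27 for Lct, 0.30 for Enpp7 and 0.50 for Plb1. The 18 tested distal ileum markers had 9 members on each side and a median of 0.00. Where along the ileum each piece was taken is not given in the sources used here, and the part of position in the differences above was not tested.

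Of 18 clock genes, 13 were lower and 5 higher, with an unadjusted p under 0.05 for 10 and 3 of them, 0 called and a median of -0.57. Nr1d1 (-0.63, adjusted p = 0.117) and Per1 (-0.93, adjusted p = 0.126), which repress and are repressed within the clock, were lower and the repressor Cry1 was higher (0.66, adjusted p = 0.128). The summed FPKM of the list was 221 in low PAC mouse 2 against 230 to 318, and 167 to 198 against 252 to 292 with high PAC. The hour at which each mouse was killed is not given in the sources used here, and its part in the results was not tested.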

How the data were processed

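RNA from the ileum of 15 mice was analysed from 1 deposited table per mouse. By the methods, the authors used paired-end sequencing (BGISEQ-500, read length 100), SOAPnuke for filtering and Bowtie2 for mapping to mm10, while the submitters' processing notes name HISAT and DESeq2. The counter is not given in the sources used here. The deposited expected counts are estimated reads per gene and are not normalized, and between 88.59% and 89.51% of those listed for a mouse were whole numbers. The deposited FPKM values were scaled by the authors for gene length and library size. A gene missing from a mouse's file was set to 0.

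After rounding of the expected counts, 14386 genes passed edgeR's filter on low counts and entered its quasi-likelihood test (edgeR 4.0.16 with TMM, run in R 4.3.3), with treatment and Reg3g class as terms and adjustment over all genes (Benjamini-Hochberg). Adjusted p-values are from edgeR unless another tool is named. Standard errors of log2 fold changes were taken from the test statistic. Coordinates are those of GENCODE for GRCm38 and promoter windows those of RefSeq. The classes, the 34 gene lists and the tests were chosen with earlier results of these data known, and a pattern in them is no independent evidence. Named genes were up to 10 per direction with the largest change among called genes whose FPKM averaged at least 1, leaving out predicted names, members of the lists of Reg lectins, secreted products and oxidant production, and the 4 members of every other list with the smallest unadjusted p. Other genes, such as cytokines and tissue markers, were named after their values were seen. Alternatives were upper-quartile normalization, DESeq2 1.42.0, limma 3.58.1 on log2(FPKM + 0.1) and log2(FPKM + 1), no filter, no treatment term, a replicate block, log2 Reg3g as a term, each treatment alone, and leaving out each mouse in turn. The scripts were tested on simulated data. Depth was high in all mice, so that the spread between mice sets the precision except for genes with few counts. The replicates are separate mice, and cages are not given.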

Additional observations from a re-analysis of the deposited data

Results flagged for a closer look

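In 49 genes named in the report, the highest or lowest FPKM of a group of 5 mice was set against the others by the gap to its neighbour over the range of the group (Dixon's criterion). Of 147 groups, 27 (18.4%) passed, where chance alone gives about 1 in 20. This share cannot be read against chance, because Reg3g chose the classes, many of the genes were named for a difference that low PAC mouse 2 carries, and genes of a mouse move together. Low PAC mouse 2 accounts for 16 of them. It stood far above the other low PAC mice for Reg3g (5722.09 FPKM), Reg3b (9637.21), Saa1 (165.41), Slc6a14 (13.12), Duox2 (34.38), Duoxa2 (16.64), Nos2 (78.44), Gadd45g (13.05), B3galt5 (3.08), Meltf (1.26), Reg1 (2.93), Fut2 (6.78), Mptx2 (1602.72) and Il18 (39.83), and far below them for Clec2e (57.55) and Sardh (0.77).

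High PAC mouse 4 stood above its group for Duox2 (14.71 FPKM), B3galt5 (0.89), Tat (14.85) and Cry1 (8.6), and high PAC mouse 2, a Reg3g-low mouse, for Lct (52.83) and Plb1 (195.14). Among the water mice, mouse 2 stood above the others for Slc6a14 (0.44) and 2210407C18Rik (25.52) and below them for Cyp4b1 (35.94), mouse 5 above for E2f2 (8.27) and mouse 1 above for Cry1 (7.4). No sample label tells these mice from the others of their groups.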

How the results depend on the processing

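The count of 26 called genes, Reg3g included, became 273 with DESeq2, 61 with log2 Reg3g as the term, 5 without the treatment covariate, 6 within low PAC and 1 within high PAC. It stayed within 1.5 times with limma (31 with either pseudocount), without the filter (28) and with upper-quartile normalization (28), which shifted the median of all genes by -0.01 on the log2 scale. Limma on log2(FPKM + 0.1) called 10 higher and 21 lower, against 16 and 10. Leaving out 1 mouse gave 1 to 43 genes, lowest without low PAC mouse 2 and highest without high PAC mouse 4 (42 without water mouse 2), and 0 to 9 called list members against 5. No source used here says that equal mouse numbers mark a shared cage or batch. Deviations of same-numbered mice had a mean r of 0.05 across genes (-0.307 to 0.445 over 15 pairs), against -0.012 for others. With the number as a replicate block, 0 genes were called by edgeR (1143 at an unadjusted p under 0.05, smallest adjusted p 0.105), and all 25 genes kept an unadjusted p under 0.05. The difference between the treatments gave 0 genes in every version run.

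For the 25 called genes, 383 recomputed log2 fold changes stayed past the threshold, 242 did not and 0 changed sign. For 23 named genes that were not called, 39 of 575 passed and 3 changed sign, all without the treatment covariate, namely Lct (0.27), Enpp7 (0.30) and Plb1 (0.50). Among medians of lists, that of the follicular B cell markers was 0.57 without low PAC mouse 2 and -3.45 without high PAC mouse 3. Causes were not tested. Low counts limit Slc6a14, which had 1 to 786 counts, and all calls depend on the single Reg3g-high mouse with low PAC.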

Other observations

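Other gene groups showed little difference between the classes. Of 39 interferon-stimulated genes, 26 were lower and 13 higher in Reg3g-high mice, 0 had an unadjusted p under 0.05, and the median log2 fold change was -0.13. Of 11 genes of MHC class II presentation, 8 were higher with a median of 0.10, which became -0.21 without high PAC mouse 3. Of 19 tested genes of fatty acid oxidation, 14 were lower with a median of -0.10, which became 0.02 without low PAC mouse 2.

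Markers of secretory and cycling epithelial cells lay mostly on the higher side without any being called. This was so for 13 of 14 tested goblet cell markers (median 0.28, 6 with an unadjusted p under 0.05), 12 of 13 enteroendocrine markers (median 0.22, 5 with an unadjusted p under 0.05) and 14 of 14 crypt stem and cycling cell markers (median 0.23, 2 with an unadjusted p under 0.05). Without high PAC mouse 3 these medians became 0.17, 0.05 and 0.11. Of the 15 tested T cell and intraepithelial lymphocyte markers 14 were higher (median 0.30, but 0.00 without high PAC mouse 3), and of 10 plasma cell markers 9 were higher (median 0.21). The plasma cell median was 0.01 within low PAC and 0.36 within high PAC, and 0.12 without high PAC mouse 3. Of 8 tested tuft cell markers 7 were higher with a median of 0.24, which became 0.05 without high PAC mouse 3. All 10 smooth muscle markers were lower (median -0.15, 0 with an unadjusted p under 0.05 by edgeR), with a summed FPKM of 1160 in low PAC mouse 2 against 762 to 1330, and of 939 to 1130 against 1320 to 1450 with high PAC. Their median was 0.20 within low PAC and -0.40 within high PAC, and it became -0.01 without high PAC mouse 3. This list's part in the results was not tested. Of 12 pancreatic acinar markers, 2 had enough counts to be tested, 1 higher and 1 lower (median -0.02). The list summed to 11.4 to 20.5 FPKM in the Reg3g-high and 12.4 to 16 FPKM in the Reg3g-low mice, with Prss2 at no more than 0.08 FPKM and Cpa1 at no more than 0.04 FPKM.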
